A study of Rattus norvegicus with 20 samples.

Results

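Oesophageal tissue of Wistar rats with surgically induced reflux oesophagitis was compared between animals given STW5 at 0.5 ml/kg and animals given no treatment. STW5 is a liquid preparation of several herbal extracts used for functional dyspepsia. The comparison holds 8 of the 20 arrays of the series, 4 labelled STW5 0.5 ml/kg and 4 labelled untreated, and the arrays were chosen by these labels alone. All animals of both groups had the operation that lets gastric content reach the oesophagus. Dosing began 7 days ahead of the operation and ran on for 10 days from it, when the tissue was taken. The remaining groups were sham-operated rats, rats with oesophagitis given STW5 at 2 ml/kg, and rats with oesophagitis given omeprazole at 30 mg/kg, with 4 arrays each. Sham values are given beside some genes as the level in operated tissue without oesophagitis. The sources used here give neither the sex nor the age of the animals, nor a vehicle for the untreated group. Each group had 4 animals, per the series description, and the tissue was a whole oesophagus, so fewer cells of a type and less RNA per cell cannot be told apart.

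Some features of the arrays bear on every result. Low-dose arrays 1 and 2 were nearly the same measurement. The spread of single-spot differences between them was 1.28 times that between spots of a probe on 1 array. It was 2.95 to 10.6 times in the 29 other pairs within a group, and 5.61 to 9.98 times between untreated arrays. These arrays differed by little more than the noise between spots and were counted as 1 sample, their mean. The comparison is thus of 3 low-dose with 4 untreated samples. By the same measure, sham array 2 lay nearer to omeprazole array 2 (2.02 times) than to the other sham arrays (5.98 to 10.6 times). Whether its label is right was not tested, and every sham range includes it. All 8 arrays of the comparison lay on 1 slide. The untreated arrays filled its first row and the low-dose arrays its second, so row and treatment cannot be told apart. The sham arrays lay on another slide, so a difference from sham cannot be told apart from a difference between slides. The dose itself is unsettled. In the authors' deposited value table the 8 STW5 columns hold the scanner values of the other dose, while the 12 other columns hold their own. The scanner files are used here under their own labels. Features well above background made up 64.9% to 69.0% of an untreated array and 61.5% to 64.3% of a low-dose array, and no feature was saturated.

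Reflux oesophagitis is an injury of a stratified squamous epithelium. Acid and bile reach the cell layers below the surface, keratinocytes and vessels release chemokines, and neutrophils and monocytes enter the wall. The rat oesophagus has a keratinized lining over a lamina propria and a muscle coat that is striated along most of its length. Its markers were present: Krt5 and Krt14 of basal keratinocytes, Krt4 and Krt13 of suprabasal keratinocytes, Ckm, Acta1 and Myh1 of striated muscle, and Myh11 and Actg2 of smooth muscle were well above background on all 8 arrays.

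Levels are given as the log2 signal minus the 75th percentile of the array, so that 0 is a bright probe and values near -7 lie at background. The lowest signals well above background were -8.12 to -6.58 on untreated and -7.44 to -6.05 on low-dose arrays. A gene is called higher or lower where limma's moderated test gave a Benjamini-Hochberg adjusted p under 0.05 over the 13616 genes tested. Changes are log2 differences, low dose minus untreated, followed by their standard error. A range of adjusted p over the alternatives of a gene, and the highest or lowest among them, leaves out the deposited value table.

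Of the 13616 genes, 5119 were called (37.6%), with 2958 higher (21.7%) and 2161 lower (15.9%) in the low-dose samples. The values of the groups did not overlap in 37.4% of all genes, whether called or not (22.1% higher, 15.3% lower). The changes were not symmetric in size. A fall of at least 8-fold was called for 278 genes and a rise of that size for 9, and 19 genes fell at least 32-fold while 0 rose as much. The median of all genes was 0.17 higher in the low-dose samples. Of the calls, 57.8% were higher. This share was 70.0% with another background correction (normexp) and 69.4% without the filter on dim probes. It was 51.0% with these 2 groups fitted alone, 50.9% with quantile normalization and 44.0% in the deposited value table. Without low-dose samples 1 and 2, 1960 genes were called higher.

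**Figure D1:**
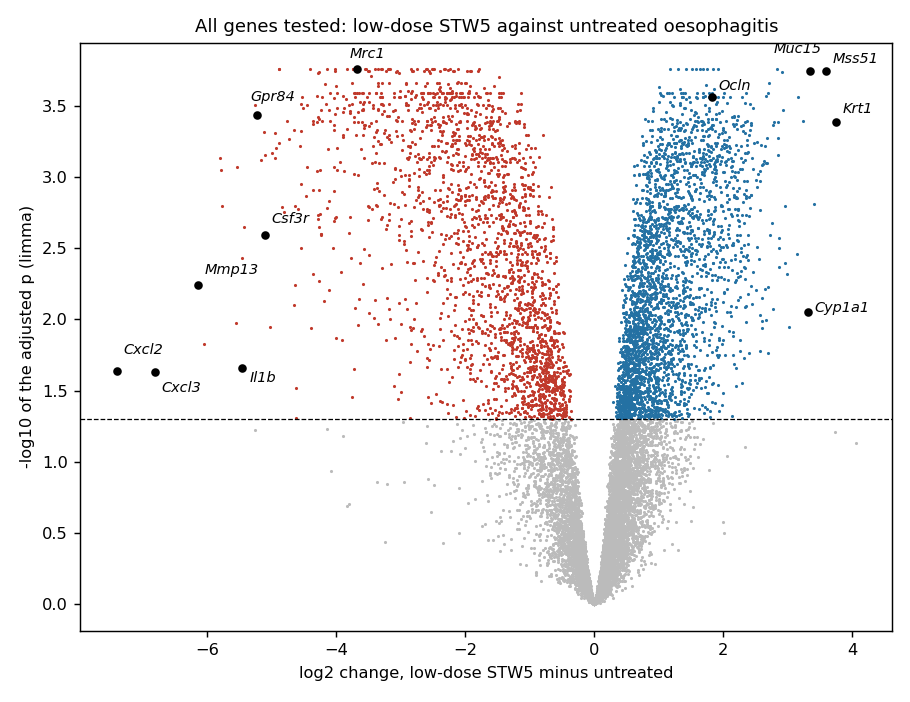
Log2 change, low-dose STW5 minus untreated (horizontal), against -log10 of limma's adjusted p (vertical) for the 13616 genes tested, with genes called higher in blue, called lower in red and not called in grey, and the dashed line at an adjusted p of 0.05. The falls reach -7.39 (Cxcl2), and the highest change of all genes tested is 4.05. Among called genes with an established symbol and no overlap between groups, no rise passes 3.75 (Krt1). The genes with the largest falls do not have the smallest adjusted p.

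Among called genes with an established symbol and no overlap between groups, the largest rises included genes of the epithelium and of muscle. Krt1, a keratin of cornifying suprabasal cells, had levels of -1.83, -1.01, -4.16 and -1.51 in untreated animals 1 to 4. It stood at 1.28 in low-dose samples 1 and 2, 2.30 in sample 3 and 1.30 in sample 4, a rise of 3.75 ± 0.62 (adjusted p = 0.00041, limma). Every low-dose value lay above every untreated value, and the sham animals, at -0.25 to 2.27, spanned the low-dose level. Muc15, a membrane-bound mucin, rose by 3.34 ± 0.43, from -7.14 to -4.70 in untreated to -3.08 to -2.30 in low-dose samples, and was well above background on 2 of 4 untreated arrays. Mss51, a mitochondrial regulator of skeletal muscle, rose by 3.59 ± 0.47, from -4.33 to -2.11 to between 0.13 and 0.77. Cobl, an actin nucleator, was not well above background on any untreated array and was at least 6.87-fold higher in the low-dose samples. Such bounds set the mean of the brighter group against the mean of the dimmer one, in which each array takes the higher of its lowest signal well above background and its own value for the probe. They hold for the main processing only. The log2 change of Cobl was as low as 0.87 over its alternatives other than the value table. Crisp3, Fxyd4, Serpina12 and the alcohol and aldehyde oxidizing enzymes Adh6a and Aox4 rose by 2.86 to 3.41, and the Aox4 call was lost with these 2 groups fitted alone.

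The largest called falls were in chemokines and in genes of neutrophils and macrophages. Cxcl2, a chemokine that draws neutrophils, had levels of 3.65, 2.67, 6.06 and 6.24 in the untreated animals. It stood at -7.44, at background, in low-dose samples 1 and 2, at -2.92 in sample 3 and at 2.15 in sample 4, a fall of 7.39 ± 2.39 on the log2 scale (adjusted p = 0.0231, limma). The groups did not overlap, but low-dose sample 4 lay close below untreated animal 2. Gpr84, a receptor for medium-chain fatty acids on myeloid cells, fell by 5.22 ± 0.84, from -1.94 to 0.61 to between -6.91 and -5.28 (adjusted p = 0.00037). It was above background on 1 low-dose array only, so its narrow low-dose spread lay near background. Its change ran from -5.64 to -2.51 over its alternatives other than the value table. Pram1, an adaptor of myeloid cells, fell by 5.53 ± 1.05 and was likewise above background on 1 low-dose array only.

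The 3 low-dose samples differed among themselves, in an order that some lists shared and others did not. Over the 6 neutrophil-attracting chemokines tested, the mean level, each gene centred over both groups, was -5.08 in samples 1 and 2, -2.82 in sample 3 and -0.44 in sample 4. The untreated animals stood at 1.12 to 2.48. The order was the same for the macrophage list (-2.62, -1.46 and -1.07, against 0.58 to 1.93) and for complement and acute phase genes (-3.25, -1.41 and -0.82, against 0.85 to 1.83). It was not the same for NF-kB genes (-1.28, -0.64 and -1.08) or for T and NK cell genes (-1.18, -0.61 and -1.26), where sample 3 lay nearest to the untreated group. Low-dose sample 4 was nearest to the untreated group in squamous differentiation, at 0.28 against 1.08 and 1.33 in the other samples. Among the untreated animals, number 2 had the lowest macrophage score (0.58) and the highest squamous score (0.18). In other lists another animal was lowest, as number 4 was in complement and acute phase genes (0.85) and matrix metalloproteinases (0.15). Number 3 was lowest in T and NK cell genes (-0.03). Among the sham animals, number 2 had a neutrophil attractant score of 0.56, above every low-dose sample, while the others lay at -5.14 to -3.46.

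**Figure D2:**
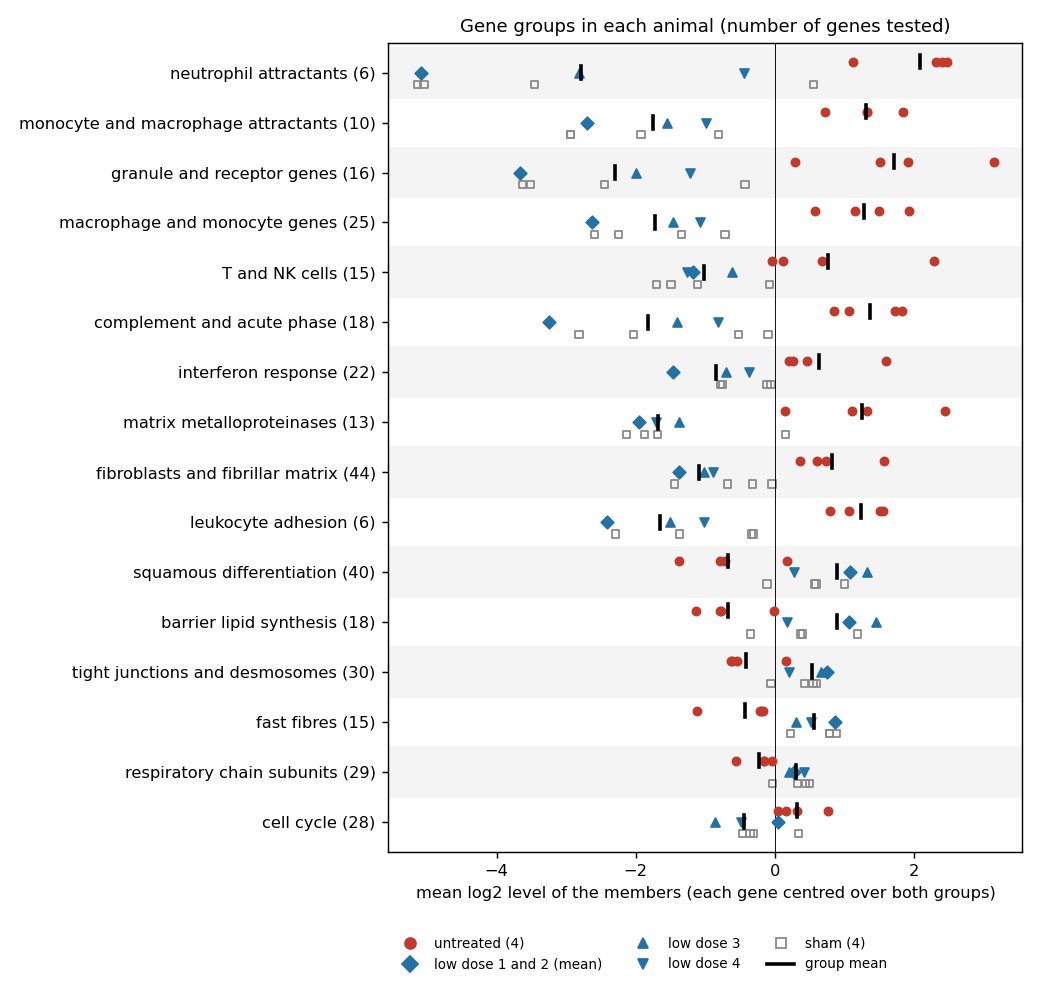
Mean log2 level of 16 gene groups (number of genes tested in brackets), each gene centred over both groups, in the 4 untreated samples (red), the low-dose samples (blue; the diamond is the mean of arrays 1 and 2) and the 4 sham samples (grey squares), with the group means as black bars. Leukocyte, matrix and vessel groups lie lower in every low-dose sample than in every untreated sample, squamous and junction groups higher, and the neutrophil attractants spread from -5.08 to -0.44 within the low-dose group.

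Chemokines fell with no rise among them. Of 30 members tested of 34, 21 were called lower (15.9% of all genes) and 0 higher, with a median change of -2.27 against 0.17 over all genes. The members were grouped by the cells they draw. Promoter sequence was available from RefSeq (GRCr8) for some, and 3 of the neutrophil attractants hold a match to the nuclear factor kappa B consensus within 100 bases of their start. NF-kB is the transcription factor through which cytokines and bacterial products raise many inflammatory genes. The 100 bases before the start are shown for these 3 genes because they fell together and hold a match, with the matched letters in capitals, on the minus strand of chr14:17479322-17479421 for Cxcl1, chr14:17467256-17467355 for Cxcl2 and chr14:17596418-17596517 for Cxcl6.
Cxcl1: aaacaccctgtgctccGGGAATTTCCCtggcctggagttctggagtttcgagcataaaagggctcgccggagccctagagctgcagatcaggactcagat
Cxcl2: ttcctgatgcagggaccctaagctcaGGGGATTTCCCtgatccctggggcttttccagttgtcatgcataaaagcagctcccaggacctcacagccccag
Cxcl6: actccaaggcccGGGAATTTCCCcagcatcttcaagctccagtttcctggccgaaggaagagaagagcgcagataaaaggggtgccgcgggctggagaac
The match begins 84, 74 and 88 bases before the start. The consensus, searched on both strands of the 250 bases before the start, occurred in 3.53% of 27456 promoters. It occurred in 7.44% of the 1639 promoters of genes called lower, 3.59% of the 2256 of genes called higher and 4.24% of the 10416 of genes tested. Of the 15 called chemokines with a promoter in the table, 5 held it, as did 6 of the 23 tested. The promoters of Il1b, Tnf, Icam1 and Sele, all called lower, held no match in the 250 bases before the start. These are matches of letters and not sites of binding.

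Among the neutrophil attractants 5 of 6 were called lower. Cxcl1 had levels of 0.37, -0.37, 2.80 and 2.83 in untreated animals 1 to 4 and of -7.39, -3.86 and -1.18 in low-dose samples 1 and 2, 3 and 4, a fall of 5.55 ± 1.55 (adjusted p = 0.0106). Cxcl3 fell by 6.81 ± 2.22 and Cxcl6 by 4.39 ± 1.25. In samples 1 and 2 all of Cxcl1, Cxcl2 and Cxcl6 lay at background, and Cxcl6 was above it on 1 low-dose array only. Pf4, platelet factor 4, which monocytes and platelets release, fell by 3.66 ± 0.58 with a narrow spread (3.14 to 5.50 against -0.64 to 1.66). Ppbp, another platelet chemokine, was not called and was above background on 0 low-dose arrays. The calls of Cxcl1, Cxcl2, Cxcl3 and Cxcl6 rested on samples 1 and 2. Without them the falls were 3.92, 5.04, 4.87 and 3.96, and the adjusted p rose to 0.0793, 0.145, 0.138 and 0.0526, the highest over their alternatives other than the value table, whose lowest were 0.00116, 0.00156, 0.00354 and 0.00329. Cxcl2 also missed the threshold without low-dose sample 3 or untreated animal 3 or 4, and Cxcl3 without low-dose sample 3.

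Of the monocyte and macrophage attractants 7 of 10 fell. Ccl2, the main ligand of the monocyte receptor Ccr2, had levels of 2.10, 1.26, 5.25 and 3.99 in the untreated animals and -2.86, -1.27 and 0.25 in the low-dose samples, a fall of 4.44 ± 0.84 (adjusted p = 0.000854). The groups did not overlap and the sham range was -2.44 to -0.20. Ccl7, Ccl12 and Ccl4 fell by 4.95 ± 0.85, 4.35 ± 0.87 and 4.00 ± 0.55. Ccl3 fell by 6.05 ± 1.80, and its change was -4.16 without low-dose samples 1 and 2, where its adjusted p was 0.106, the highest of its alternatives other than the value table (lowest 0.00238). Of the 4 eosinophil and type 2 attractants, Ccl11 (eotaxin) fell by 5.26 ± 0.81 and Ccl17 was called lower. The other two, Ccl22 and Ccl24, changed by -0.05 ± 0.58 and 0.02 ± 0.25 and were not called. Ccl17 was above background on 0 low-dose arrays, at least 5.77-fold lower, and its adjusted p was 0.0661 without samples 1 and 2 (0.00379 to 0.0864 over its alternatives). Of the 10 lymphocyte attractants 7 fell, among them Cxcl13, which draws B cells (-3.21 ± 0.84), the interferon-induced Cxcl10 (at least 7.67-fold lower) and Ccl21 of lymphatic endothelium (-1.70 ± 0.42). The Cxcl10 call was lost with normexp and the Ccl21 call with these 2 groups fitted alone. The Cxcl13 groups overlapped, and it was not called without low-dose samples 1 and 2 (-2.20, adjusted p = 0.0584, with 0.000308 to 0.0586 over its alternatives). Over the whole list, 11 chemokines were called lower without those samples.

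**Figure D3:**
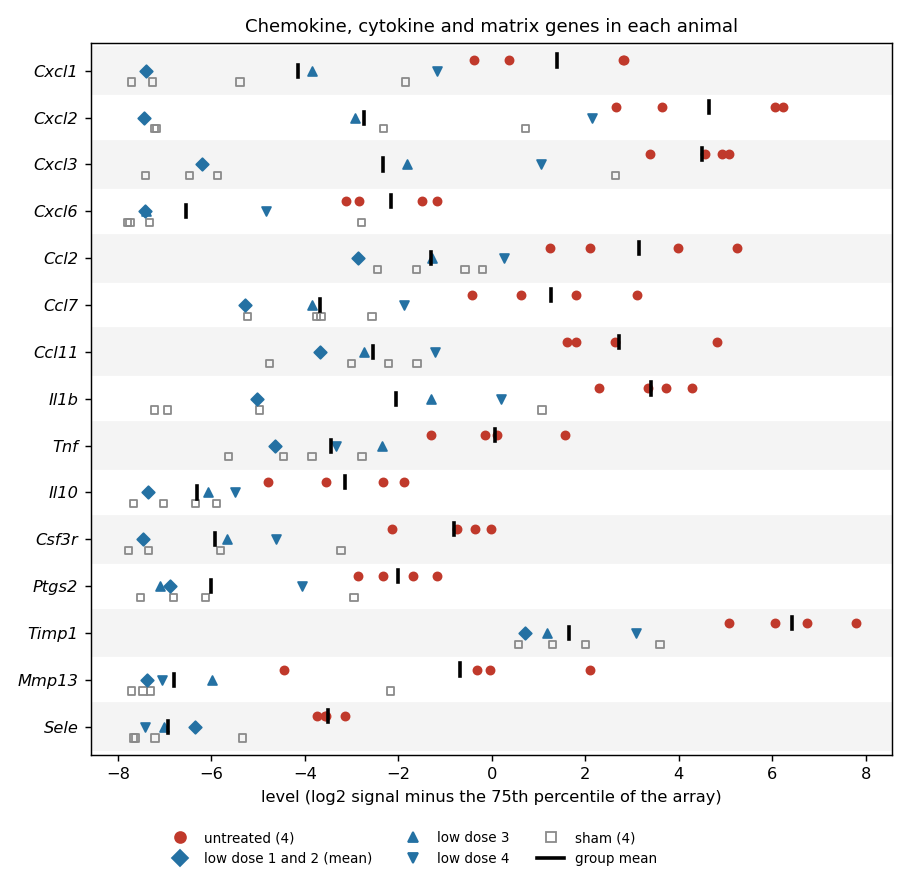
Level (log2 signal minus the 75th percentile of the array) of 15 chemokine, cytokine and matrix genes in the untreated (red), low-dose (blue; the diamond is the mean of arrays 1 and 2) and sham (grey squares) samples, with group means as black bars. The low-dose samples lie below the untreated samples in all 15 genes, and Cxcl2 spreads from -7.44 to 2.15 within the low-dose group while Timp1 spreads from 0.70 to 3.09.

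Cytokines and their receptors fell more often than they rose, and both rises were in the interleukin 36 branch. Of 45 tested of 53, 25 were called lower and 2 higher, with a median of -1.31. Il1b, the main secreted interleukin 1, had levels of 3.73, 2.30, 3.35 and 4.29 in the untreated animals and -5.02, -1.31 and 0.20 in the low-dose samples, a change of -5.46 ± 1.75 (adjusted p = 0.022). Without low-dose samples 1 and 2 it fell by 3.97 with an adjusted p of 0.128, the highest of its alternatives other than the value table (lowest 0.00441). Its receptor Il1r1 (-1.75 ± 0.33), Il18 (-1.81 ± 0.28) and Il1rl1, the receptor of interleukin 33 (-4.36 ± 1.07), fell as well. Il36b, a cytokine of keratinocytes, rose by 2.07 ± 0.46 and the receptor antagonist Il36rn by 2.07 ± 0.52, and in neither did the groups overlap. Il1rn, the interleukin 1 receptor antagonist, changed by -0.79 ± 0.30 (adjusted p = 0.0479), with overlap, a call lost when any single sample but untreated animal 2 was left out (0.0784 to 0.139 in those fits, and 0.00882 to 0.139 over all alternatives).

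Tnf had levels of 0.12, -1.29, 1.56 and -0.14 in the untreated animals and -4.63, -2.35 and -3.32 in the low-dose samples, a fall of 3.50 ± 0.75 (adjusted p = 0.00199). Its receptor Tnfrsf1b fell by 4.28 ± 0.69. The receptors of the interleukin 6 family fell by less, Il6r by 1.31 ± 0.27 and the shared subunit Il6st by 1.45 ± 0.31. Il6 itself had levels of -5.64, -6.79, -1.58 and -2.96 in the untreated animals and was above background on 0 low-dose arrays, at least 4.74-fold lower. Its groups overlapped, and its call was lost without untreated animal 3 (adjusted p = 0.0972) or 4, without low-dose samples 1 and 2 or without sample 3 (0.00223 to 0.224 over its alternatives). All 6 colony-stimulating factor genes tested were called lower. They were led by Csf3r, the receptor of the neutrophil growth factor (-5.11 ± 1.14, from -2.13 to -0.01 down to -7.47 to -4.62), with Csf1r (-2.88 ± 0.41), Csf2ra (-2.28 ± 0.33) and Csf1 (-2.09 ± 0.42). The anti-inflammatory Il10 (-3.18 ± 0.69) and Tgfb1 (-2.39 ± 0.41) fell too, as did Il4r (-1.87 ± 0.51) and Il23a (-1.40 ± 0.32). With normexp the change of Il23a was -0.00305 and was not called.

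Sensors and regulators of NF-kB moved the same way, with 13 of 17 called lower and 0 higher. Nfkbie, an inhibitor that NF-kB itself induces, fell by 2.32 ± 0.28, from -1.45 to -0.26 down to -3.52 to -2.91. Cd14 and Tlr2, which bind bacterial lipids, changed by -4.27 ± 0.56 and -4.21 ± 0.63, both called lower. Nlrp3, a core of the inflammasome that matures interleukin 1, was at least 7.41-fold lower. Of the 12 called members with a promoter in the table, 6 held the NF-kB consensus described for Cxcl1, as did 6 of the 16 tested.

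Markers of most leukocyte types fell, and they did so beside the chemokines in the same animals. The cell content of the tissue was not measured. Of 16 neutrophil genes tested, 12 were called lower, with a median of -4.97. Fcnb, a ficolin of neutrophil granules, had levels of 0.81, -0.71, 3.02 and 1.94 in the untreated animals and -6.74, -4.52 and -2.34 in the low-dose samples (-5.80 ± 1.07, adjusted p = 0.000737). Lcn2, Retnlg and Camp fell by 5.77 ± 1.20, 5.78 ± 1.10 and 5.10 ± 0.93. S100a8 and S100a9, the calprotectin subunits that stressed keratinocytes also make, changed by -4.07 ± 1.99 and -5.25 ± 2.11 and were not called (adjusted p = 0.117 and 0.0597). Both were high in low-dose sample 3, at 3.75 and 2.94, and without that sample S100a9 was called (-6.72, adjusted p = 0.042, with 0.0128 to 0.309 over its alternatives).

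Macrophage and monocyte genes were called lower in 23 of 25, with a median of -3.30. Mrc1, the mannose receptor, had levels of -2.23, -3.12, -1.94 and -2.59 in the untreated animals and -6.70, -6.33 and -5.43 in the low-dose samples (-3.68 ± 0.38). The low-dose levels lay near the lowest signals well above background (-7.44 to -6.05). The Mrc1 change ran from -4.04 to -1.17 over its alternatives other than the value table. Tyrobp and Cd68 fell by 3.49 ± 0.51 and 3.31 ± 0.51. T and NK cell genes were called lower in 9 of 15. Cd4, which macrophages of the rat also carry, fell by 2.79 ± 0.58, Cd8a was at least 6.43-fold lower and Nkg7 fell by 2.21 ± 0.56. The calls of Cd4 and Cd8a were lost with normexp. With the normexp background correction 3 of this list were called lower. Untreated animal 1 stood highest in it, at 2.28 against -0.03 to 0.68 in the others. Of 13 mast cell and eosinophil genes 9 were called lower, 5 without low-dose samples 1 and 2 or without sample 3, and 1 with normexp. The mast cell tryptase Tpsab1 fell by 2.99 ± 0.64 and was lowest in samples 1 and 2 (-5.05) and highest in sample 4 (-1.80). Of the 10 B and plasma cell genes 3 could be tested. Tnfrsf17, a receptor of plasma cells, rose by 2.01 ± 0.52, Pax5 by 0.48 ± 0.15, and Fcrla fell by 1.62 ± 0.60. The Tnfrsf17 call was lost with these 2 groups fitted alone. The calls of Pax5 and Fcrla were lost in several fits that left out 1 sample (adjusted p of 0.00851 to 0.108 and 0.00365 to 0.126 over their alternatives).

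Proteins of innate and adaptive recognition followed. Complement and acute phase genes were called lower in 16 of 18, with a median of -3.17. Hp, haptoglobin, fell by 4.93 ± 0.88, Lbp, which presents bacterial lipid to Cd14, by 5.16 ± 0.96, and the protease scavenger A2m by 4.17 ± 0.57. The complement receptor C5ar1 fell by 3.84 ± 0.58, and C3ar1, above background on 0 low-dose arrays, was at least 12.2-fold lower. Antigen presentation genes were called lower in 17 of 19. The class II genes had a median of -2.23, with RT1-DMb at -3.06 ± 0.40 and RT1-Da at -2.61 ± 0.44, and the class I genes one of -1.25, with B2m at -1.45 ± 0.32 and Psmb9 at -1.51 ± 0.32. Interferon-induced genes were called lower in 11 of 22, and in 7 without low-dose samples 1 and 2. Oas1a, Rsad2 and Mx1, which act against viral RNA and budding, fell by 4.27 ± 0.85, 3.88 ± 0.74 and 2.48 ± 0.46, and Oasl was at least 6.66-fold lower. Mx1 was highest in untreated animal 1, at 1.29 against -0.96 to -0.58 in the others.

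**Figure D4:**
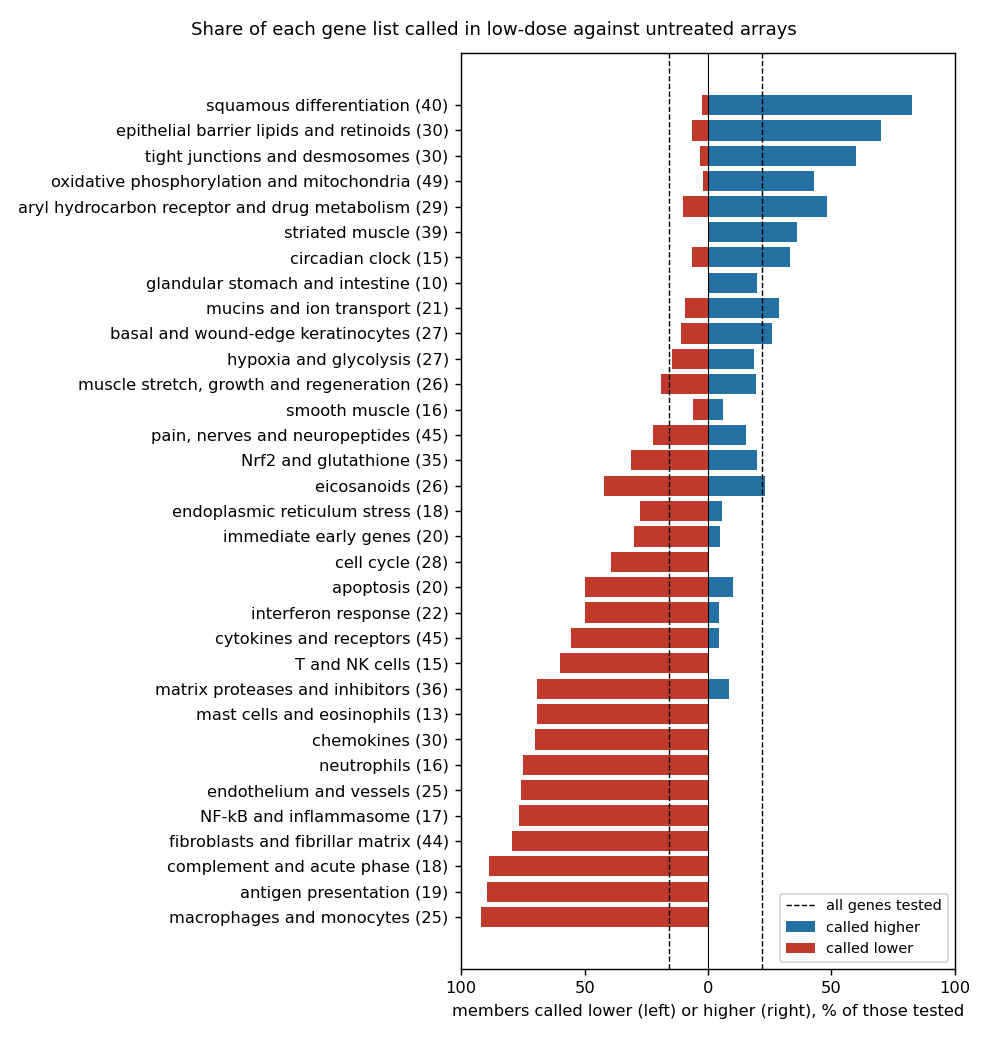
Percent of the tested members of each list with at least 10 members tested (number in brackets) that were called higher (blue, to the right) or lower (red, to the left) in low-dose against untreated samples, with dashed lines at the 21.7% and 15.9% of all genes tested. Macrophage, antigen presentation and complement lists stand at the lower end and squamous differentiation at the upper end, with 33 of 40 members higher.

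Eicosanoid genes moved in both directions. Of 26 tested, 11 were called lower (42.3%, against 15.9% of all genes) and 6 higher (23.1%, near the 21.7% of all genes). The list had 7 lower without low-dose samples 1 and 2 or without sample 3. Prostaglandin E2 is made by Ptgs2 and Ptges, acts on receptors such as Ptger2, and is inactivated by Hpgd. Ptgs2 had levels of -2.33, -2.87, -1.68 and -1.18 in the untreated animals and -6.88, -7.10 and -4.06 in the low-dose samples, a fall of 4.00 ± 1.17 (adjusted p = 0.0135). Its call was lost without low-dose samples 1 and 2 (adjusted p = 0.0609) or without sample 3 (0.0636, the highest of its alternatives other than the value table, the lowest being 0.00386). Ptges fell by 1.97 ± 0.45 and Ptger2 was at least 8.06-fold lower, while Hpgd rose by 2.22 ± 0.47 (from -0.45 to 1.79 up to 2.77 to 3.60). The Ptges call was lost with these 2 groups fitted alone. Ptgds, a prostaglandin D2 synthase, rose by 2.26 ± 0.54. Alox5ap and Tbxas1, the myeloid routes to leukotrienes and thromboxane, fell by 3.43 ± 0.61 and 2.75 ± 0.38. The epidermal lipoxygenases Alox12b and Aloxe3, which act on ceramides of the cornified layer, rose by 2.15 ± 0.63 and 2.00 ± 0.42, and Alox12 rose by 2.56 ± 0.50. The Alox12b groups overlapped, and it missed the threshold without low-dose samples 1 and 2 (1.99, adjusted p = 0.0535) or sample 3 (1.63, 0.0809, the highest of its alternatives other than the value table, from 0.00178).

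Oxidant and antioxidant genes also moved both ways. Of 35 genes of the Nrf2 and glutathione list, 7 were called higher and 11 lower, against 21.7% and 15.9% of all genes, and the median was 0.02. The subunits of the phagocyte NADPH oxidase, which makes superoxide, were among the genes called lower: Ncf1, Cybb and Cyba fell by 4.12 ± 0.74, 3.38 ± 0.55 and 2.15 ± 0.33. Catalase (Cat) had levels of -1.89, -1.38, -2.53 and -1.68 in the untreated animals and -0.40, -0.43 and -0.32 in the low-dose samples, a rise of 1.49 ± 0.23 (adjusted p = 0.000296). Me1, a source of NADPH, rose by 1.40 ± 0.22. Hmox1, haem oxygenase 1, changed by -1.39 ± 0.48 (adjusted p = 0.0317), with overlap between the groups. Its call was lost in 5 of the fits that left out 1 sample, with the highest adjusted p, 0.153, without low-dose sample 4 (0.00363 to 0.153 over its alternatives).

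Genes of drug metabolism were called higher more often than the 21.7% of all genes, with 14 of 29 called higher and 3 lower and a median of 0.81. Without low-dose samples 1 and 2, 1 was called lower, as were 2 without untreated animal 1 or low-dose sample 4. Cyp1a1, the typical target of the aryl hydrocarbon receptor, which plant compounds can bind, was not above background on any untreated array. It stood at -2.75 in low-dose samples 1 and 2, -4.43 in sample 3 and -6.65 in sample 4, at least 5.99-fold higher (adjusted p = 0.00895). Its call was lost without samples 1 and 2 (adjusted p = 0.0684, the highest of its alternatives other than the value table, from 0.0017). Sham animal 2, whose array lay nearest to an omeprazole array, stood within the low-dose range, at -3.44. Of the 8 targets of this receptor tested, 3 rose and 1 fell, against 21.7% and 15.9% of all genes. The mean level of these targets overlapped between the groups, at 0.005 in low-dose sample 4 and 0.021 in untreated animal 4. Aldh3a1 rose by 1.85 ± 0.41 and Nqo1 by 1.09 ± 0.30, both without overlap. Cyp1b1 fell by 1.20 ± 0.38, with overlap, a call lost without low-dose samples 1 and 2, low-dose sample 4, or untreated animal 1 or 4 (0.0014 to 0.0892 over its alternatives). The other enzymes that rose included Cyp2s1 (1.68 ± 0.24), Cyp3a9 (1.94 ± 0.33) and the retinoic acid hydroxylase Cyp26b1 (1.89 ± 0.31). Adh6a had levels of -1.10, 1.16, -2.03 and 0.12 in the untreated animals and 2.97, 2.86 and 2.49 in the low-dose samples, above the sham range of 0.58 to 1.66.

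Matrix-degrading enzymes fell in both groups of proteases. Of 13 matrix metalloproteinases tested 10 were called lower, and of 12 other proteases 10. AP-1 is the factor made of Fos and Jun proteins through which injury signals act on collagenase genes. The motif TGANTCA was searched on both strands of the 250 bases before the start. It occurred in 3.98% of all promoters, in 3.63% of those of genes tested, 4.45% of genes called lower and 4.61% of genes called higher. Of the protease and inhibitor list, 5 of the 20 called members with a promoter in the table held the motif, as did 6 of the 27 tested. It is shown in the 100 bases before the start of the collagenase and stromelysin genes, which fell together, on the plus strand of chr8:12782729-12782828 (GRCr8) for Mmp13 and chr8:12925181-12925280 for Mmp3, with the matched letters in capitals.
Mmp13: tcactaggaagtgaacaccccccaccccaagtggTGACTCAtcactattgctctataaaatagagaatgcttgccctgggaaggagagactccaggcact
Mmp3: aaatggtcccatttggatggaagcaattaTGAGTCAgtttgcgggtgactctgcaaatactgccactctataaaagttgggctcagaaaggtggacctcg
The match begins 66 bases before the start in Mmp13 and 71 in Mmp3. The promoters of Timp1 and Ivl, also searched, held no match in the 250 bases before the start. Mmp13 had levels of 2.11, -0.03, -0.31 and -4.45 in the untreated animals and was above background on 0 low-dose arrays, at least 48.0-fold lower (adjusted p = 0.00575). Untreated animal 4 stood apart in Mmp3 as well, at -5.15 against -3.32 to -1.60 in the others. Mmp3 was at least 11.4-fold lower and Mmp9, the gelatinase of neutrophils, at least 33.5-fold lower. These bounds depend on the processing. Over the alternatives other than the value table, the log2 change was as small as -3.05 in Mmp13, -0.95 in Mmp3 and -2.36 in Mmp9.

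The membrane-bound Mmp14 fell by 2.80 ± 0.46, Mmp2 by 2.20 ± 0.38 and Mmp19 by 2.53 ± 0.42. Cathepsin S (Ctss), of antigen-presenting cells, fell by 3.57 ± 0.56, and the aggrecan- and versican-cleaving Adamts1, Adamts5 and Adamts9 by 2.77 ± 0.51, 1.92 ± 0.38 and 2.06 ± 0.30. Inhibitors moved both ways, with 5 of 11 lower and 3 higher, against 15.9% and 21.7% of all genes. Timp1, the inhibitor of metalloproteinases, had levels of 6.06, 5.08, 7.80 and 6.75 in the untreated animals and 0.70, 1.18 and 3.09 in the low-dose samples, a fall of 4.76 ± 0.78 (adjusted p = 0.000404). The keratinocyte inhibitors Spink5 and Serpinb2 rose by 2.32 ± 0.56 and 1.50 ± 0.35, and the Spink5 call was lost with these 2 groups fitted alone.

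Fibroblast and matrix genes were called lower in 35 of 44 with 0 higher, and the median was -1.87. Col1a1 fell by 1.87 ± 0.45, and Col3a1 changed by -0.64 ± 0.30 and was not called (adjusted p = 0.103), though it was without untreated animal 3 (-0.82, 0.048) or 4 (-0.84, 0.0386), with 0.0386 to 0.315 over its alternatives. Lox, which cross-links collagen, had levels of 1.01, -0.27, 0.68 and 1.08 in the untreated animals and -2.91, -2.23 and -1.90 in the low-dose samples (-2.97 ± 0.49). Plod2 and P4ha2, which hydroxylate it, fell by 1.77 ± 0.26 and 1.43 ± 0.25. Vcan (versican) fell by 3.34 ± 0.46, Thbs1 was at least 13.4-fold lower, and the fibroblast receptors Pdgfra and Pdgfrb fell by 2.44 ± 0.36 and 2.66 ± 0.40. Untreated animal 1 stood highest in this list, at 1.58 against 0.36 to 0.74.

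Vessel genes were called lower in 19 of 25. The adhesion molecules with which endothelium holds leukocytes fell: Icam1 by 2.63 ± 0.35, Vcam1 by 2.56 ± 0.46 and Icam2 by 2.13 ± 0.38. E-selectin (Sele) had levels of -3.14, -3.56, -3.74 and -3.55 in the untreated animals and was above background on 0 low-dose arrays, at least 7.73-fold lower. Endothelial identity genes fell as well, with Esam at -2.39 ± 0.34, Nos3 at -2.22 ± 0.32, Eng at -2.77 ± 0.46 and Flt1 at -2.35 ± 0.40. Vegfa, the growth factor of these cells, changed by -0.23 ± 0.21 and was not called, and its 4 probes ran from -0.33 to 0.03.

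Squamous differentiation genes rose. Of 40 tested of 49, 33 were called higher (21.7% of all genes) and 1 lower, with a median of 1.72. Among the keratins and envelope proteins 18 of 20 rose. Krt78 rose by 2.26 ± 0.43 and Krt80 by 2.22 ± 0.43. Krt4 and Krt13, the keratin pair of the oesophageal lining, rose by 1.44 ± 0.41 and 1.25 ± 0.34. Krt4 ran from 5.37 to 7.62 in untreated and from 7.75 to 8.38 in low-dose samples, while the Krt13 ranges of 5.97 to 7.67 and 7.63 to 8.52 overlapped. The Krt13 and Krt4 calls were both lost with quantile normalization and with these 2 groups fitted alone. The Krt4 call was lost without low-dose sample 3 (1.30, adjusted p = 0.0503, with 0.00237 to 0.0738 over its alternatives). Ivl, involucrin of the cornified envelope, had levels of -4.16, -3.10, -3.03 and -3.10 in the untreated animals and -1.19, -0.20 and -1.91 in the low-dose samples (2.25 ± 0.49). Tgm3, which cross-links that envelope, rose by 1.68 ± 0.32.

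Regulators of the programme rose with it: Prdm1 by 1.85 ± 0.26, Ovol1 by 1.76 ± 0.29 and Grhl3 by 1.68 ± 0.25. Klk8, a serine protease of shedding cells, rose by 2.16 ± 0.36. The single member called lower was Padi3, a protein-citrullinating enzyme (-2.40 ± 0.72). Its call was lost without untreated animal 1 (-1.79, adjusted p = 0.0502) or low-dose sample 4 (-2.13, 0.0541), with 0.00416 to 0.0546 over its alternatives.

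Barrier lipid genes were called higher in 16 of 18. Elovl4, which makes the very long fatty acids of barrier ceramides, had levels of -3.47, -2.39, -3.95 and -3.19 in the untreated animals and -0.95, -0.48 and -1.72 in the low-dose samples (2.20 ± 0.37, adjusted p = 0.000423). Elovl1, the triglyceride enzyme Dgat2 and the lipase Lipk rose by 1.06 ± 0.21, 1.27 ± 0.21 and 2.04 ± 0.38. Retinoid genes went both ways, 5 of 12 higher and 2 lower, against 21.7% and 15.9% of all genes. The nuclear receptor Rarg (0.96 ± 0.19) and the binding protein Crabp2 (1.26 ± 0.28) rose, while the retinol-esterifying Lrat (-2.40 ± 0.56) fell.

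Junction genes rose in 18 of 30, with 1 lower. Occludin (Ocln) had levels of -1.91, -1.34, -2.27 and -1.50 in the untreated animals and 0.34, -0.06 and -0.08 in the low-dose samples, a rise of 1.82 ± 0.27 (adjusted p = 0.000276). The low-dose values lay above the sham range of -1.15 to -0.51. Marveld2, which seals the corners where 3 cells meet, rose by 1.56 ± 0.26, Tjp3 by 1.87 ± 0.28 and Cldn23 by 1.80 ± 0.34. Cldn4 rose by 1.29 ± 0.30, and Cldn1 was not called (0.66 ± 0.42). The member called lower, Cldn5, is a claudin of endothelium (-1.12 ± 0.41). Its groups overlapped, and its call was lost without untreated animal 1 or 2, low-dose samples 1 and 2 (-0.61, adjusted p = 0.266) or sample 4, with 0.0104 to 0.266 over its alternatives. Desmosomal Dsp, Perp and Pkp1 rose by 1.75 ± 0.39, 1.30 ± 0.26 and 1.29 ± 0.29, and the adhesion protein Nectin4 by 1.99 ± 0.35. In Dsp untreated animal 2, at 4.36, lay above low-dose sample 4, at 4.18.

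**Figure D5:**
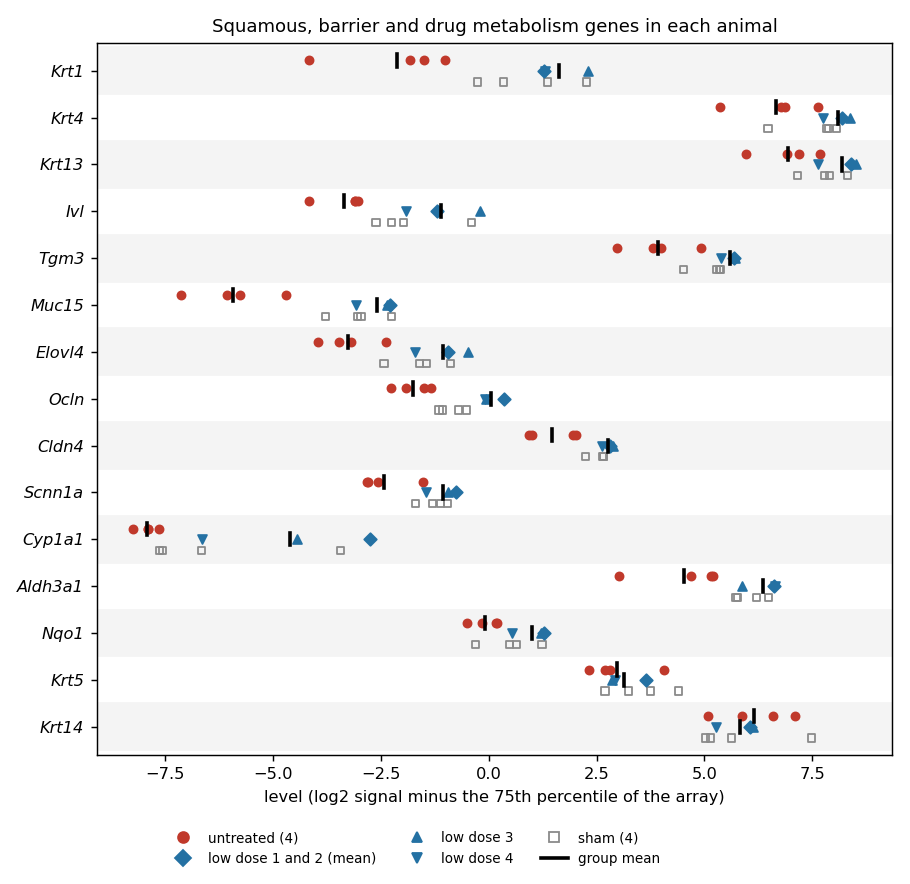
Level (log2 signal minus the 75th percentile of the array) of 15 squamous, barrier and drug metabolism genes in the untreated (red), low-dose (blue; the diamond is the mean of arrays 1 and 2) and sham (grey squares) samples, with group means as black bars. The group mean is higher in low-dose samples in all genes but Krt14, Cyp1a1 spreads from -6.65 to -2.75 within the low-dose group, and the ranges of Krt13, Krt5 and Krt14 overlap.

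Basal keratinocyte genes were called higher in 5 of 15 and lower in 0, against 21.7% and 15.9% of all genes. Their median was 0.36, against 0.17 over all genes. Krt5 and Krt14, the keratins of the basal layer, changed by 0.17 ± 0.44 and -0.34 ± 0.64 and were not called. Sox2, a transcription factor of the basal layer, rose by 1.70 ± 0.33 and Krt15 by 1.14 ± 0.31, a call lost with these 2 groups fitted alone. Egfr and Tp63 rose by 0.90 ± 0.27 and 1.03 ± 0.31, with overlap. Both lost their call without untreated animal 1 or low-dose samples 1 and 2, and Egfr also without sample 3 (0.00103 to 0.115 and 0.000801 to 0.0847 over their alternatives). Of 12 wound-edge genes 2 rose and 3 fell, near the 21.7% and 15.9% of all genes. Itga5, the fibronectin receptor subunit of migrating cells, fell by 2.86 ± 0.49, Plaur, the urokinase receptor, by 4.25 ± 0.90 and Krt75 by 2.03 ± 0.51, while the growth factor Tgfa rose by 1.52 ± 0.34. The groups overlapped in Krt75 and Tgfa, and with normexp the Krt75 change was -0.0048 and not called, nor was it called with array weights. Over the basal and wound-edge lists together 7 genes were called higher, and 3 without untreated animal 1 or without low-dose samples 1 and 2.

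Of 21 mucin and ion transport genes 6 rose and 2 fell, close to the 21.7% and 15.9% of all genes. Slc26a9, a chloride and bicarbonate channel, had levels of -4.13, -4.11, -3.92 and -4.13 in the untreated animals and -2.53, -2.19 and -3.01 in the low-dose samples (1.50 ± 0.24). The subunits Scnn1a and Scnn1b of the epithelial sodium channel rose by 1.37 ± 0.29 and 1.79 ± 0.58. The Scnn1b call was lost without low-dose samples 1 and 2 or sample 3 (1.19, adjusted p = 0.141) and without untreated animal 3 or 4 (0.00204 to 0.141 over its alternatives). Car4, a membrane carbonic anhydrase, fell by 3.99 ± 0.85, from -0.80 to 3.08 down to -4.25 to -0.87, and the bicarbonate carrier Slc4a7 by 0.94 ± 0.23. Of the whole list, 3 members were called higher without untreated animal 3 or 4 or low-dose sample 3.

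Striated muscle genes were called higher in 14 of 39 (35.9%) with 0 lower, against 21.7% and 15.9% of all genes. The share called higher was largest among those of fast fibres, 8 of 15. Pvalb, the calcium buffer of fast fibres, had levels of 0.89, 1.28, 0.52 and 0.55 in the untreated animals and 2.57, 3.21 and 2.08 in the low-dose samples (1.81 ± 0.33). Actn3 rose by 1.76 ± 0.40 and the fast myosin Myh4 by 1.50 ± 0.38. Ckm and the calcium pump Atp2a1 rose by 0.93 ± 0.32 and 0.84 ± 0.29, with overlap. The Ckm call was lost without untreated animal 1, low-dose samples 1 and 2 or sample 4 (0.0125 to 0.12 over its alternatives), and the Atp2a1 call without those or untreated animal 3 (0.0104 to 0.175). Of 11 slow fibre genes 1 rose, Mybpc1, by 1.14 ± 0.39, a call lost without untreated animal 1, low-dose samples 1 and 2 or sample 3 (0.0101 to 0.0961). Myl2 changed by 3.74 ± 1.51 and was not called (adjusted p = 0.0614). It ran from -8.11 to -4.25 in untreated samples and stood at -1.83, 0.56 and -6.83 in the low-dose samples, and was called without untreated animal 1 or low-dose sample 4 (0.00415 to 0.319 over its alternatives). Of the whole list 6 were called higher without untreated animal 1 and 5 without low-dose samples 1 and 2. In those fits the list did not exceed the share of all genes, of which 2378 and 1960 of 13616 were called higher. Untreated animal 1 stood lowest in this list, at -1.21 against -0.32 to 0.02 in the others.

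Mitochondrial genes were called higher in 21 of 49 (42.9%, against 21.7% of all genes), with 1 lower and a median of 0.52. Enzymes of fatty acid oxidation rose: Acadm by 1.47 ± 0.28, Cpt2 by 1.14 ± 0.19, Hadha by 1.08 ± 0.18 and Acadvl by 1.05 ± 0.18. In Hadha the untreated animals stood at 1.02 to 1.79 and the low-dose samples at 2.35 to 2.49. Respiratory chain subunits rose by less, among them Ndufa4 by 0.86 ± 0.21 and Ndufs3 by 0.62 ± 0.19. The list held 12 genes called higher without untreated animal 1, 13 without low-dose samples 1 and 2 and 13 without low-dose sample 4.

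Of 26 genes of muscle stretch, growth and regeneration 5 fell and 5 rose (19.2% each), near the 15.9% lower and 21.7% higher of all genes. None of the rises was called without low-dose sample 4, while 2 were without untreated animal 1. Ankrd2, which stretched or injured muscle makes, had levels of 0.36, 1.27, 6.08 and 2.85 in the untreated animals and -1.86, -1.09 and -0.86 in the low-dose samples (-3.91 ± 1.15). It was not called without low-dose samples 1 and 2 (-3.61, adjusted p = 0.0558, with 0.00437 to 0.0586 over its alternatives). Ncam1 and Runx1, which rise in muscle that has lost its nerve, fell by 2.08 ± 0.52 and 2.25 ± 0.45, although other cells of the wall express both. Igf1 fell by 2.31 ± 0.42. The list had 3 genes called lower without low-dose samples 1 and 2. Of 16 smooth muscle genes 1 rose and 1 fell, with 4 lower without low-dose sample 4, and Myh11 was not called (0.84 ± 0.44), though it was without untreated animal 2 (1.21, 0.0281) or low-dose samples 1 and 2 (1.29, 0.0464), with 0.0281 to 0.802 over its alternatives.

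Genes of nerves and of pain sensing went both ways, 7 of 45 higher and 10 lower, with a median of 0.06. These are 15.6% and 22.2%, against 21.7% and 15.9% of all genes. The falls were mostly of receptors. Bdkrb1, the kinin receptor that tissue injury induces, had levels of -3.73, -4.32, -3.87 and -3.93 in the untreated animals and was above background on 0 low-dose arrays, at least 4.48-fold lower, a call lost with normexp. The serotonin receptor Htr2b fell by 3.08 ± 0.49, the purine receptor P2rx4 by 2.53 ± 0.41, the cation channel Trpv2 by 2.21 ± 0.39 and Tacr1, the receptor of substance P, by 2.41 ± 0.50. Leukocytes and vessels express several of these. Trpv1, the receptor of acid and capsaicin, rose by 1.45 ± 0.52, with overlap. Its call was lost without untreated animal 3 (0.93, adjusted p = 0.114) or 4 and without low-dose samples 1 and 2 (1.33, 0.113) or sample 3 (0.98, 0.196), with 0.00662 to 0.196 over its alternatives. Tac1, which encodes substance P, was not called (-1.41 ± 0.65), although it was without untreated animal 1 (-1.92, 0.0266, with 0.0266 to 0.365 over its alternatives). Nmu, neuromedin U, rose by 1.43 ± 0.33 and Erbb3, a receptor of glia and epithelium, by 1.17 ± 0.27. The list had 4 genes called higher without untreated animal 1, untreated animal 4 or low-dose sample 3.

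Cell cycle genes were called lower in 11 of 28 (39.3%, against 15.9% of all genes) with 0 higher and a median of -0.80. However, 4 were called lower without low-dose sample 3 and 5 without untreated animal 4. Those counts are near the shares of all genes in the same fits, 1765 and 2094 of 13616 called lower. Low-dose samples 1 and 2 stood at 0.04 in this list, above sample 3 (-0.86) and sample 4 (-0.49) and just below the lowest untreated animal (0.05). Rrm2, which makes deoxynucleotides, fell by 1.52 ± 0.40 and the mitotic kinase Aurka by 1.35 ± 0.34. Pcna, the replication clamp, fell by 1.04 ± 0.29, a call lost without low-dose sample 3 (-0.71, adjusted p = 0.0777, with 0.00657 to 0.0777 over its alternatives). Apoptosis genes were called lower in 10 of 20 (50%, against 15.9% of all genes), and in 6 without untreated animal 1 or low-dose samples 1 and 2. The pore-forming Bak1 fell by 1.57 ± 0.25. Fas was at least 3.73-fold lower and Bcl2a1, a survival factor of myeloid cells, at least 19.4-fold lower. The call of Fas was lost with normexp.

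In the hypoxia and glycolysis list 5 of 27 rose and 4 fell, near the shares of all genes. Hif1a fell by 2.08 ± 0.42 and the lactate exporter Slc16a3 by 2.47 ± 0.46, while the oxygen sensor Egln3 rose by 2.19 ± 0.42. Without low-dose samples 1 and 2 the list had 1 rise, and it had 2 without untreated animal 1 and 3 without untreated animal 3 or low-dose sample 4. Of 20 immediate early genes 6 fell (30%) and 1 rose (5%), against 15.9% and 21.7% of all genes. Fos and Nr4a3 fell by 2.32 ± 0.57 and 2.44 ± 0.38, and Klf4, which also drives squamous differentiation, rose by 1.38 ± 0.24. Of 15 circadian genes 5 rose (33.3%) and 1 fell (6.67%), against 21.7% and 15.9% of all genes. Clock rose by 1.22 ± 0.21 and Per3 by 0.67 ± 0.18, while Nfil3, which cytokines also induce, fell by 2.41 ± 0.50. The circadian list had 3 rises without low-dose sample 4. In that fit the list did not exceed the share of all genes, of which 2923 of 13616 were called higher. The time of day at which tissue was taken is not given in the sources used here.

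Markers of neighbouring tissues were mostly at background or uneven between animals. Tg, Foxj1, Rag1, Dntt, Cdx2, Muc2 and Plin1 did not pass the filter on dim probes. Gkn1 and Pgc, of gastric glands, were highest in untreated animal 2 (-1.09 and 0.55) and in low-dose sample 4 (-1.56 and 0.03). The remaining samples of both groups lay at -6.84 to -3.40 and -3.69 to -2.31. These 2 samples are also the ones nearest to the other group in the chemokine and squamous lists, and the part of gastric tissue in those results was not tested. Fat cell genes were uneven, with Adipoq at -2.65 to 0.60 in untreated animals and -6.75, -1.37 and 0.79 in the low-dose samples, and it was not called (-2.09 ± 1.60), though it was with array weights. Of 5 red cell genes 0 were called, with 0 at an unadjusted p under 0.05. Hbb ran from 2.58 to 6.22 in untreated and from 1.25 to 5.86 in low-dose samples.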

How the data were processed

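Oesophageal RNA was labelled with Cy3 and hybridised to one-colour Agilent rat arrays. Per the file headers, the authors' images were read with Feature Extraction 10.7.3.1 (protocol GE1_107_Sep09, probe coordinates in rn4), and the deposited intensity used here is its processed signal, background-subtracted and detrended within the array. The authors' deposited value table holds, from its values, the ratio of each signal to the array median (column median 1). Its processing is not given in the sources used here.

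Log2 intensities were scaled to each array's 75th percentile, and spots of a probe were averaged without outlier flags. Dim probes were left out: 4 or more of the 20 arrays had to show 50% or more of the spots of a probe well above background. The brightest probe stood for a gene. Probes of opposite sign occurred in 374 genes. Limma 3.58.1 in R 4.3.3 was fitted over all 5 groups, with low-dose arrays 1 and 2 averaged. The series description gives 4 animals a group; whether low-dose arrays 1 and 2 were 2 animals cannot be told from the files. On simulated data of 13616 genes for this comparison, 49% of 100 genes changed by 1 and 87% of 100 changed by 2 on the log2 scale were called. Of the genes left unchanged, 8 were called. Only the genes changed by 1 or 2 differed in the simulation, whereas 37.6% of genes were called in the data. The adjusted p therefore cuts at another level, and these shares are not detection rates of the comparison itself. The number of arrays limits the precision.

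Genes named were the 15 largest rises and falls among called genes with an established symbol (no provisional LOC or RGD name) and no overlap between groups, up to 4 genes of smallest p in each role of a list, a set of typical genes and defining tissue markers. Ppbp, S100a8, S100a9, Il36rn, Il1rn, Padi3, Cldn5, Ncf1, Cybb, Lrat, Spink5, Scnn1b, Ptgds and Tacr1 were named after their values were seen. Members and lists were chosen with earlier results of these data known. Of 1040 list genes, 878 were tested, 116 were dim and 46 had no probe of that name. Promoters came from RefSeq (GRCr8). A few members chosen this way are left out of the text.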

Additional observations from a re-analysis of the deposited data

Results flagged for a closer look

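Of 263 gene and list values examined, 13 had 1 untreated animal far from the other 3, which is 4.94% where chance gives about 5%. No explanation was tested. The value given is the gap to the nearest animal divided by the range of the group, above Dixon's critical value in each. Untreated animal 1 stood high in antigen presentation (0.954), Mx1 (0.831) and Htr2b (0.842), and apart in Ivl (0.938) and Dgat2 (0.859). Untreated animal 2 stood low in cytokines and receptors (0.869) and high in the glandular stomach list (0.857), the junction list (0.890) and Dsp (0.890), and apart in Hmox1 (0.865) and Prdm1 (0.854). Untreated animal 3 stood apart in Slc26a9 (0.879) and Adipoq (0.844).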

How the results depend on the processing

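Of 209 named genes called, 166 kept their call under every alternative other than the deposited value table, and 180 did so without each sample in turn. With the untreated and low-dose groups fitted alone, 2809 genes were called (1433 higher, 1376 lower) and 101 list members were called higher. In the value table, whose STW5 columns hold the scanner values of the other dose, 1186 were called (522 higher, 664 lower), with 105 list members (17 higher, 88 lower). Requiring a 2-fold change left 3015 calls (1422 higher), and without the filter on dim probes 4962 were called higher. Leaving out 1 sample gave 3604 to 5028 calls, 1960 to 2925 higher and 1644 to 2163 lower. Of list members it gave 387 to 505 called, 133 to 189 higher and 254 to 316 lower. In the value table the sign turned for Retnlg (1.18), RT1-Da (0.013), B2m (0.0084), Alox12b (-0.047), Mmp2 (0.0025), Serpinb2 (-0.14), Krt13 (-0.014), Dgat2 (-0.11), Elovl1 (-0.061), Slc26a9 (-0.27) and Erbb3 (-0.033). The causes of the other changes were not tested. With the replicate number as a block over all 20 arrays, 6333 genes were called (3820 higher, 2513 lower). Same-numbered samples did not deviate together (correlations of -0.10, 0.18, -0.05 and 0.22), so the numbers were not taken as pairs. Where a group was at background on all its arrays, the report gives a bound for a called gene. Each bound holds for the main processing only. Some log2 changes were smaller than their bound in an alternative other than the value table. They were as small as -0.56 in Sele, -0.59 in Nlrp3, -0.51 in Oasl and 1.02 in Cyp1a1.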
